A study of Rattus norvegicus with 9 samples.

Results

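Circulating B cell and plasma cell transcripts were followed in mononuclear cells of peripheral blood (PBMC), a fraction rich in lymphocytes and monocytes, of rats with and without experimental pulmonary hypertension. The set was chosen by gene symbol: 31 genes of the B cell receptor and its signalling, of the B cell surface, of B cell transcription and of plasma cells. Of these, 30 had a line in the deposited table of 22077 intact genes, and all 30 were among the 12447 genes tested. Cd79a, which encodes the partner of CD79B in the receptor complex, had no line under that symbol. A line named Cd79al was measured at 2.15 to 6.38 CPM (exon reads scaled to a common library size) and was not taken for it. Only 0.19% of the reads of that line were uniquely mapped, so its level is uncertain. The animals were wild-type Sprague-Dawley rats in 3 groups of 3 libraries: normoxia at day 0, Sugen-Hypoxia (SuHx) at day 28 and SuHx at day 56. SuHx models the disease by exposing rats to low oxygen together with Sugen, which blocks VEGF receptors. All groups share strain and genotype, and the labels give neither age nor sex. Since each control library is from day 0, time and treatment cannot be told apart. The labels do not say that replicates are separate animals, so p-values measure only the spread between these libraries.

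B cells recognise antigen with a membrane immunoglobulin that signals through CD79A and CD79B, the kinases SYK and BTK, the adaptor BLNK and the phospholipase PLCG2. Their identity is held by transcription factors such as PAX5, EBF1 and BACH2. On activation, a part of them becomes antibody-secreting plasma cells, a step in which PRDM1 (Blimp-1) represses B cell genes and XBP1 enlarges the secretory pathway. PRDM1 and BTK are not exclusive to this lineage: PRDM1 is also made by activated T cells, NK cells and some myeloid cells, and BTK by monocytes. In such bulk RNA, fewer cells of a type and less RNA per cell cannot be told apart.

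Exon reads per library ranged from 22148400 to 39947430. At these depths 3 reads correspond to 0.0762 to 0.195 CPM, and all 30 genes had reads in all 9 libraries. The 5 globin-locus genes with the most reads took 43.0% to 56.3% of exon reads in normoxia, 1.42% to 29.0% at day 28 and 40.5% to 44.4% at day 56. Intron reads made up 14.6%, 6.60% and 5.37% of gene reads in normoxia replicates 1 to 3, 14.2% to 24.9% at day 28 and 11.9% to 16.9% at day 56. Normoxia replicate 1 thus stood apart from its group. Calls that rest on this library are given with and without it. Erythroid markers summed to 3257 to 8464 CPM in normoxia, 71.3 to 1944 at day 28 and 3706 to 4268 at day 56, platelet markers to 680 to 3260, 528 to 844 and 1892 to 3823, and neutrophil markers, with Mpo and Elane below 1 CPM in all libraries, to 43.9 to 95.2, 98.1 to 271 and 58.1 to 96.4. Plasmacytoid dendritic cell markers, from cells that also make Spib, summed to 143 to 272, 141 to 189 and 148 to 236 CPM, with Cox6a2 below 1 CPM in all libraries.

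Upstream sequence was looked at for the gene that rose, Prdm1, and for 2 genes that did not pass the test: Jchain, another plasma cell gene, and Blnk, which carries an octamer. Each sequence is the 250 bases before the gene's start in RefSeq (build GRCr8), whose table held entries for 23 of the 31 symbols; Cd79b, Ms4a1, Pax5, Blk, Fcer2, Cd72, Pou2af1 and Mzb1 had none. Capitals mark matches, on either strand, to the octamer ATTTGCAT bound by OCT factors, to the AP-1 site TGANTCA, or to GAGGAA, a core of the ETS sites bound by PU.1 and SPIB. The Prdm1 window is chr20:49564089-49564338 (minus strand), the Jchain window chr14:19822726-19822975 (plus strand) and the Blnk window chr1:249770534-249770783 (minus strand).
Prdm1: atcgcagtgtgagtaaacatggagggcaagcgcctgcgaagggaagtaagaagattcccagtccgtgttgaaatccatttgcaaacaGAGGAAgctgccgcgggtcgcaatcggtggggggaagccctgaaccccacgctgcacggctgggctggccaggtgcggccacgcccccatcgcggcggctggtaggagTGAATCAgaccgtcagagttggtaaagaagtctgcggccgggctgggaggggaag
Jchain: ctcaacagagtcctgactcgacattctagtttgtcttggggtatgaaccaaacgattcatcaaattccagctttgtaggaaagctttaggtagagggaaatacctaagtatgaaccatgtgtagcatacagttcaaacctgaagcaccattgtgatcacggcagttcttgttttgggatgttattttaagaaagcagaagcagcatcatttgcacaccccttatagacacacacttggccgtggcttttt
Blnk: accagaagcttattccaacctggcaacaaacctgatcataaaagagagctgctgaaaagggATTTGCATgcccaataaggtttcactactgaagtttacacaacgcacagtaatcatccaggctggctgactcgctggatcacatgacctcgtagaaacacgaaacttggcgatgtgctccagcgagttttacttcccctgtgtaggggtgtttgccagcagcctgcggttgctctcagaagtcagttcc
In Prdm1 the capitals are GAGGAA and, nearer the start, an AP-1 site; in Blnk they are the octamer; the Jchain window has none. The 3 windows shown end at the edge of the RefSeq gene, while most windows of the 23 symbols end at a start that is not this edge. The AP-1 letters were in 1 of the 23 windows (Prdm1) and in 6.34% of all 33469 windows of this length. The octamer was in 2 (Blnk and Vpreb3) against 1.56% of all windows, and GAGGAA in 12 against 23.3%. TCCC and GGGA separated by 2 bases, the palindrome bound by EBF1, was in 0 of 23 windows and in 0.738% of all. No motif overlapped another in these 3 windows. These matches describe letters and do not show binding.

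Day 28 asks whether the B cell transcripts of blood differed from normoxia early in the model. No member passed the threshold (edgeR quasi-likelihood test, Benjamini-Hochberg adjusted p of at most 0.05 over all 12447 genes), where 0.129% of all genes did. At an unadjusted p of at most 0.05 there were 9 of 30 members (30%), near the 28.8% of all genes. DESeq2 called 2 members, Cd79b and Mzb1, where it called 13.6% of all genes tested. The estimate was below 0 for 21 of 30 members and the median log2 fold change was -0.33, against -0.0058 over all genes tested. In 6 members (20.0%) all day 28 libraries lay below all normoxia libraries (11.8% of all genes), and in 1 member (3.33%) they lay above (11.4% of all genes).

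Day 56 asks the same of the later stage. Of the 30 members, 3 passed: Prdm1 rose, and Cd79b and Btk fell. The share was 3.33% higher and 6.67% lower, where 7.12% of all genes passed, 3.42% higher and 3.70% lower; the members' shares are close to this background. At an unadjusted p of at most 0.05 there were 12 of 30 (40%), where 30.9% of all genes were. DESeq2 called 7 members (23.3%), where it called 19.6% of all genes tested. The estimate was below 0 for 22 members (73.3%, against 53.0% of all genes), with a median of -0.45 against -0.045 over all genes. In 8 members (26.7%) the day 56 libraries lay below all normoxia libraries (14.9% of all genes) and in 1, Prdm1, above (15.6% of all genes). Between day 28 and day 56, 1 member differed, again Prdm1 and upward, where 0.546% of all genes passed and 0.426% passed upward. Unadjusted p-values of at most 0.05 numbered 3, where 18.5% of all genes had one, and DESeq2 called 2 members, Prdm1 and Btk, where it called 8.73% of all genes. The comparisons of day 28 and of day 56 share the normoxia libraries.

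**Figure D1:**
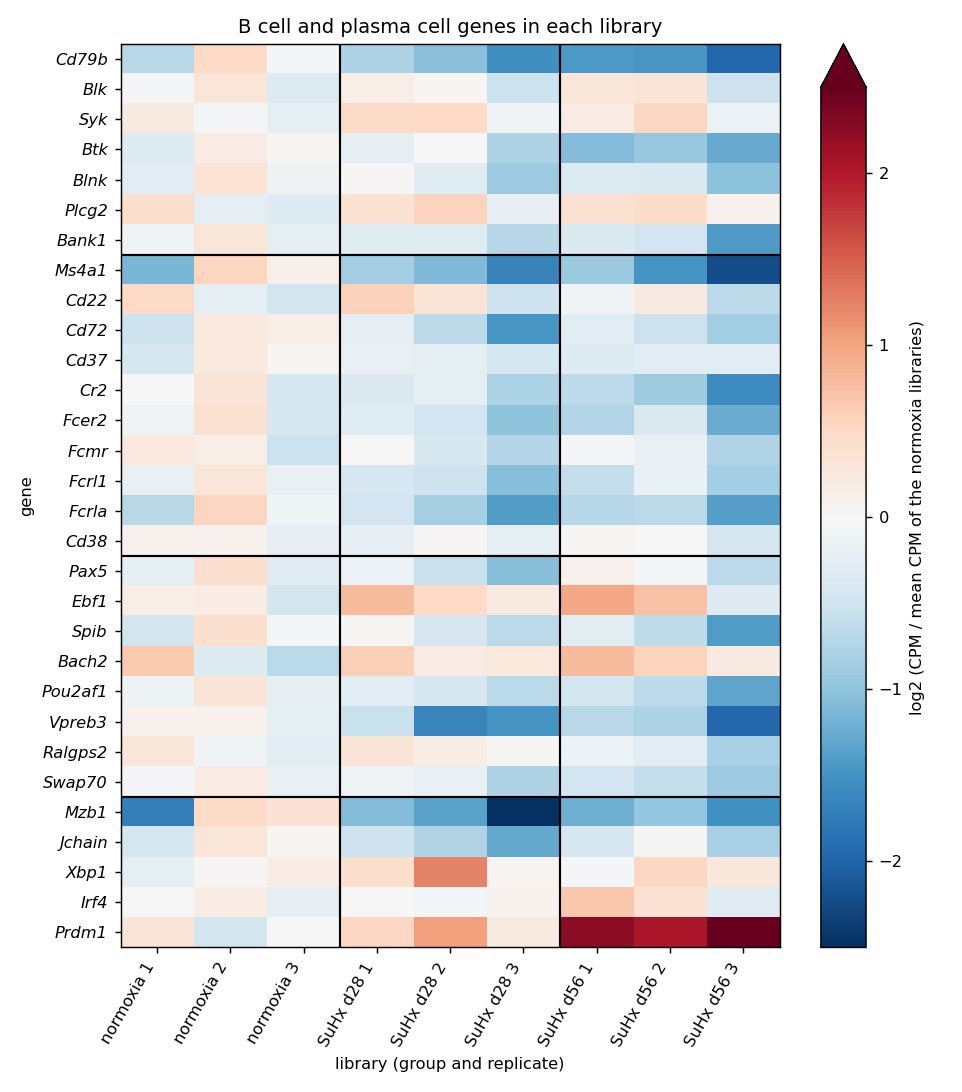
Exon reads of the 30 genes (y axis, in 4 role groups split by lines) in each of the 9 libraries (x axis), as log2 of CPM over the gene's mean CPM in normoxia; red is higher and blue lower. Prdm1 stands out in red in the 3 day 56 libraries, replicate 3 of both SuHx groups is the lowest of its group for 27 of 30 genes, and Mzb1 and Ms4a1 are blue in normoxia replicate 1.

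Prdm1 (chromosome 20, 49464919 to 49556518 on rn6) encodes the repressor that drives plasma cell differentiation. It was measured at 10.5, 6.11 and 8.44 CPM in normoxia replicates 1 to 3, at 12.0, 16.9 and 9.72 CPM at day 28, and at 39.2, 34.3 and 49.7 CPM at day 56. Every day 56 library lay above all others, while day 28 and normoxia overlapped. It rose 4.92-fold at day 56 over normoxia (log2 fold change 2.30, SE 0.28; edgeR adjusted p = 0.00473) and was 3.19-fold higher than at day 28 (1.67, SE 0.27; adjusted p = 0.0330). The rise over normoxia passed in all 20 alternative analyses (adjusted p 1.84e-12 to 0.0260). The difference from day 28 passed in 13 of 20. It was lost with the globin share as a covariate (adjusted p = 0.361) and without normoxia replicate 3 (0.0567), day 28 replicate 1 (0.127) or 2 (0.0759), or day 56 replicate 1 (0.0889), 2 (0.109) or 3 (0.153). At day 28 the log2 fold change over normoxia was 0.63 (SE 0.27, edgeR adjusted p = 0.162), and 0.87 without normoxia replicate 1 (adjusted p = 0.0341).

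Reads in Prdm1 introns, which come largely from unspliced RNA, were few but followed the same order. They numbered 16, 13 and 8 in normoxia, 91, 134 and 63 at day 28, and 109, 85 and 144 at day 56. Scaled as the exon reads, these were 0.666, 0.478 and 0.519 CPM in normoxia, 2.42, 3.40 and 2.02 at day 28, and 4.07, 3.57 and 4.83 at day 56. The 3 groups did not overlap. Introns held 5.80% to 7.26% of the gene's reads in normoxia, 16.7% to 17.2% at day 28 and 8.85% to 9.42% at day 56. The intron share of whole libraries also differed between groups, as given above, and its part in this was not tested.

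Cells other than plasma cells can carry Prdm1, and their markers are given beside it. The summed level of 8 NK cell markers was 400 to 600 CPM in normoxia, 266 to 492 at day 28 and 595 to 736 at day 56, with all 8 detected in every library. The sum of 12 T cell markers was 1628 to 1741, 1238 to 2004 and 1696 to 2164 CPM in the same order. These sums overlapped between day 56 and normoxia for both lists. For NK cells the overlap was narrow, with a day 56 minimum of 595 and a normoxia maximum of 600 CPM. Between day 56 and day 28 the NK sums did not overlap. Of the 8 NK markers, 7 had estimates above 0 at day 56 and 1 below, and 0 passed by edgeR. In 4 of them the day 56 libraries lay above all normoxia libraries, where 15.6% of all genes did. Gzmb was among these 4, with only 0.37% of its reads uniquely mapped. Of the 12 T cell markers, 6 had estimates above 0 at day 56 and 6 below. In all day 56 libraries 2 of the 12 lay above normoxia, Cd28 and Cd8a (15.6% of all genes did). Trat1 was the only marker below it (14.9% of all genes), without passing (log2 -1.11, SE 0.33, edgeR adjusted p = 0.0654). Cd8a did not pass either (log2 0.54, SE 0.22, edgeR adjusted p = 0.136), and its day 28 libraries also lay above normoxia. Only the costimulatory receptor Cd28 passed at day 56, upward (3.42% of all genes did). It was at 32.2, 26.9 and 24.7 CPM in normoxia, 34.7, 24.95 and 44.2 at day 28, and 75.4, 55.6 and 62.1 at day 56. Its day 56 libraries lay above all others (log2 1.203, SE 0.23, edgeR adjusted p = 0.0209). This call passed in 14 of 20 alternatives and was lost with the intron share as a covariate (0.0720), without normoxia replicate 2 (0.0878) or 3 (0.0919) and without day 56 replicate 1 (0.0613), 2 (0.0635) or 3 (0.0810). The 10 monocyte markers summed to 2030 to 4327, 3202 to 10540 and 1691 to 2664 CPM, with Cd163 and Ms4a7 below 1 CPM in all libraries. The part of these cells in the Prdm1 result was not tested.

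**Figure D2:**
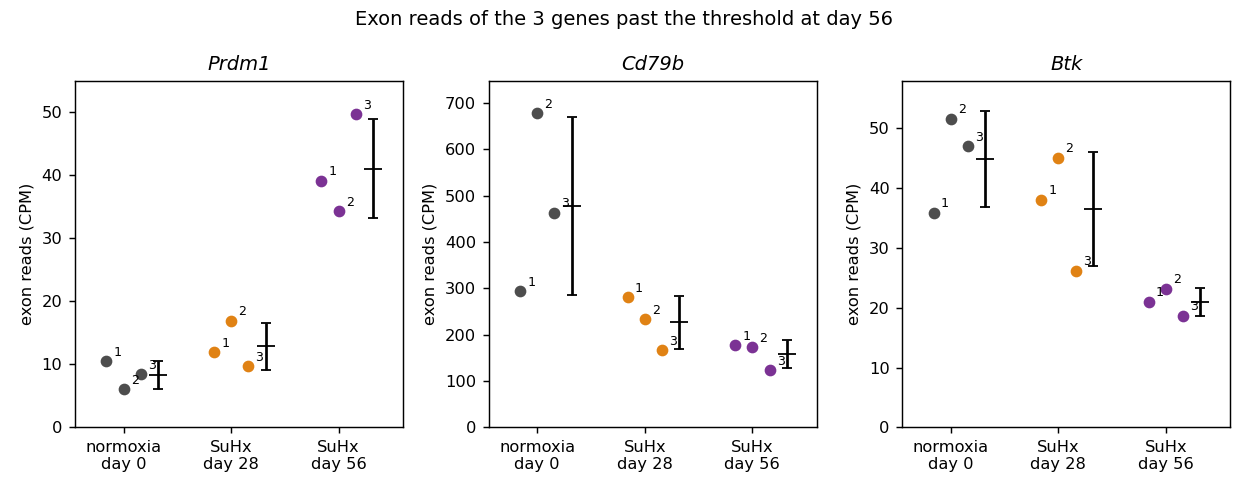
Exon reads (y axis, CPM, from 0) of Prdm1, Cd79b and Btk in the 3 groups (x axis); points are libraries with their replicate number, and bars show the mean ± SD of 3 libraries. The day 56 points of Prdm1 (34.3 to 49.7) lie above all others, and those of Cd79b (124 to 177) and Btk (18.7 to 23.2) lie below all normoxia points.

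In the B cell receptor group, 2 of 7 members fell at day 56 (3.70% of all genes did) and 5 did not pass. Cd79b (chromosome 10, 94497448 to 94500591), the signalling chain of the receptor, was measured at 294, 678 and 464 CPM in normoxia, at 281, 233 and 166 at day 28, and at 177, 174 and 124 at day 56. Both SuHx groups lay below all normoxia libraries, and normoxia itself spread more than 2-fold. At day 56 Cd79b fell 3.03-fold (log2 -1.60, SE 0.33; edgeR adjusted p = 0.0257); at day 28 the value was -1.08 (SE 0.32, adjusted p = 0.0988), which passed without normoxia replicate 1 (-1.31, adjusted p = 0.00508) and by DESeq2 (0.0177). The day 56 call held in 13 of 20 alternatives. It was lost with the intron share as a covariate (adjusted p = 0.103), in a fit of only the 2 groups (0.0545), without normoxia replicate 2 (0.0863) or 3 (0.0823), and without day 56 replicate 1 (0.0668), 2 (0.0958) or 3 (0.119).

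Btk (chromosome X, 105360922 to 105390580), the kinase that relays the receptor signal, was measured at 35.9, 51.6 and 47.04 CPM in normoxia, 38.1, 45.1 and 26.2 at day 28, and 21.0, 23.2 and 18.7 at day 56. All day 56 libraries lay below all libraries of both other groups, which overlapped each other. Btk fell 2.14-fold at day 56 (log2 -1.10, SE 0.22; edgeR adjusted p = 0.0257), against -0.30 (SE 0.22, adjusted p = 0.370) at day 28. Between day 56 and day 28 the value was -0.80 (SE 0.22, adjusted p = 0.110), which passed in 3 of 20 alternatives: DESeq2 (0.0213), without normoxia replicate 1 (0.0441) and without day 28 replicate 3 (0.0475). The day 56 call held in 14 of 20 alternatives and was lost with the intron share as a covariate (adjusted p = 0.0913). It was also lost without normoxia replicate 2 (0.0946) or 3 (0.0893) and without day 56 replicate 1 (0.0714), 2 (0.0853) or 3 (0.117). The monocyte marker sums given above, from cells that also make Btk, overlapped between day 56 and normoxia. Against day 28 the day 56 sums were lower without overlap. So were 6 of the 8 markers tested, where 17.4% of all genes were. Most of each sum was 1 gene, Lyz2, at 1288 to 8606 CPM. The part of these cells in the Btk result was not tested.

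The other receptor genes did not pass. Syk, the kinase upstream of Btk, averaged 235 ± 38.5 CPM in normoxia, 294 ± 60.4 at day 28 and 273 ± 61.9 at day 56 (SD, n = 3). Plcg2, the phospholipase, averaged 99.6 ± 30.4, 122 ± 31.2 and 124 ± 15.8 CPM. Blk, a receptor-linked Src kinase, averaged 36.4 ± 8.09, 34.4 ± 8.10 and 39.1 ± 11.7 CPM. For these 3 genes the groups overlapped in every comparison. The adaptors Blnk and Bank1 were below normoxia in all day 56 libraries without passing: Blnk was at 36.7, 56.5 and 40.8 CPM in normoxia and at 35.1, 34.8 and 22.0 at day 56. Bank1 was at 72.6, 96.9 and 66.6 CPM in normoxia and at 60.9, 56.6 and 29.4 at day 56 (log2 -0.69, SE 0.28, edgeR adjusted p = 0.131).

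**Figure D3:**
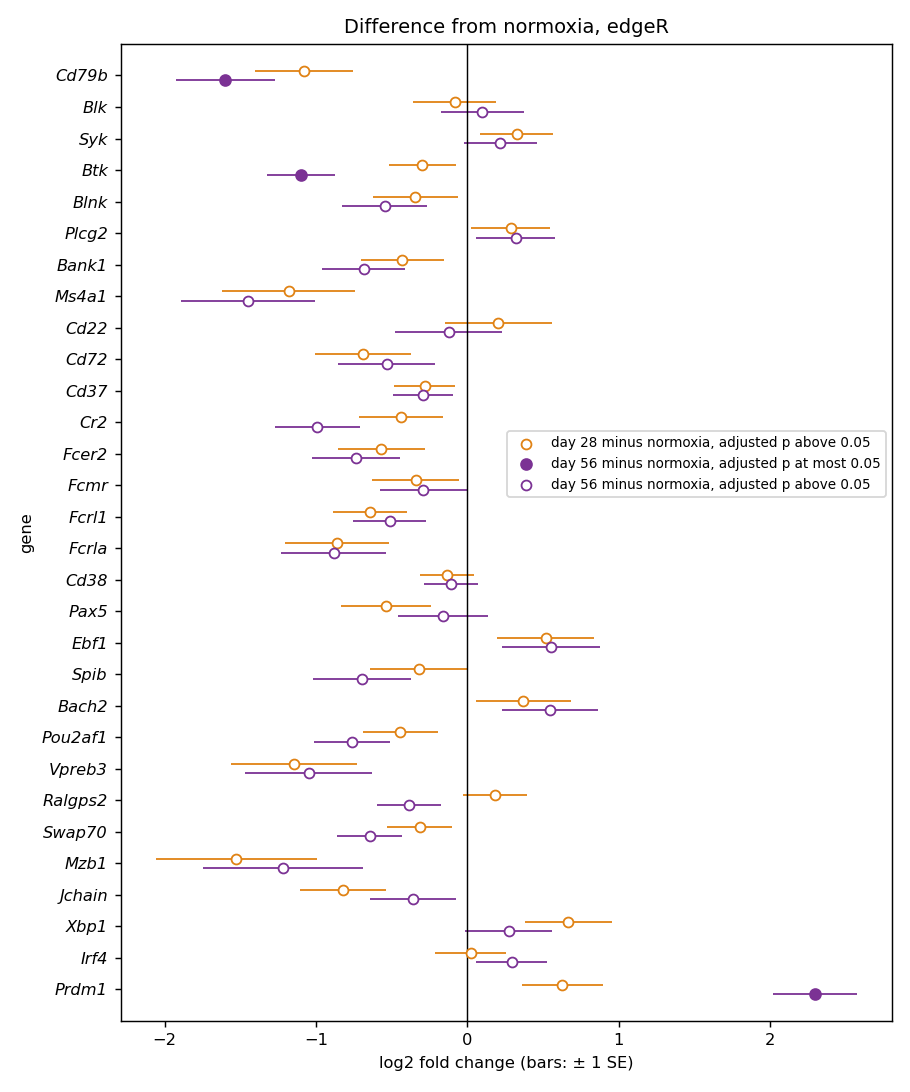
Log2 fold change from normoxia (x axis, ± 1 SE, edgeR) of the 30 genes (y axis) at day 28 (orange) and day 56 (purple); filled points have an adjusted p of at most 0.05. Prdm1 (2.30) is the filled point to the right, and Cd79b (-1.60) and Btk (-1.10) are those to the left. Of the 30 day 56 estimates, 22 lie below 0 (53.0% of all genes do).

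The 10 surface proteins all had estimates below 0 at day 56 and 9 of them at day 28, with 0 called in either; at day 56 unadjusted edgeR p-values of at most 0.05 numbered 4, and at day 28 they numbered 3. DESeq2 called 2 at day 56, Ms4a1 and Cr2, and 0 at day 28. The shares of all genes under these rules are those given above. Ms4a1, which encodes CD20, was at 87.1, 278 and 210 CPM in normoxia, 105, 88.6 and 60.5 at day 28, and 101, 68.5 and 41.1 at day 56. Normoxia replicate 1 lay among the SuHx libraries, while the other normoxia libraries lay above all of them. Its log2 fold change was -1.18 (SE 0.44, adjusted p = 0.131) at day 28 and -1.45 (SE 0.44, adjusted p = 0.0702) at day 56 by edgeR. DESeq2 called the day 56 value (adjusted p = 0.0118), and without normoxia replicate 1 both passed (0.0110 and 0.00507).

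Cr2, the complement receptor CD21 of mature B cells, was at 130, 159 and 94.5 CPM in normoxia, 99.5, 109 and 73.6 at day 28, and 81.0, 68.8 and 43.1 at day 56. All day 56 libraries lay below all normoxia libraries. The day 56 value was -0.99 (SE 0.28, edgeR adjusted p = 0.0596). It passed with exon plus intron reads (0.0381), DESeq2 (0.0108), a replicate block (0.0265) and without normoxia replicate 1 (0.0375).

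Fcrla, an intracellular Fc-receptor-like protein of B cells, was at 92.5, 220 and 140 CPM in normoxia and at 92.2, 94.6 and 58.2 at day 56, so the groups overlapped through normoxia replicate 1. Fcer2, the low-affinity IgE receptor CD23, was at 131, 181 and 104 CPM in normoxia and 83.1, 108 and 59.2 at day 56. Their day 56 values were -0.88 (SE 0.35, edgeR adjusted p = 0.123) and -0.74 (SE 0.29, adjusted p = 0.124). Without normoxia replicate 1 the day 56 value of Fcrla passed (-1.12, adjusted p = 0.0215). At day 28, Fcrla was at -0.86 (adjusted p = 0.148), and at -1.09 without that library (0.0237); Fcrl1, another Fc-receptor-like protein, was at -0.64 (SE 0.24, adjusted p = 0.134). Cd22, an inhibitory lectin, ran from 94.6 to 221 CPM with all groups overlapping. Cd38, an ectoenzyme found on B cells, plasma cells and many other leukocytes, ran from 89.6 to 128 CPM, also overlapping. Cd37, Cd72 and Fcmr overlapped between groups too. Cd37, a tetraspanin, passed downward only without normoxia replicate 1 (day 28 log2 -0.42, edgeR adjusted p = 0.0204; day 56 -0.45, 0.0167).

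Among the transcription factors and other B cell genes, 0 of 8 passed in any comparison by edgeR. DESeq2 called Pou2af1 and Swap70 at day 56, where it called 19.6% of all genes. Unadjusted p-values of at most 0.05 numbered 1 at day 28, 3 at day 56 and 1 between the days. The shares of all genes were 28.8%, 30.9% and 18.5%. Pou2af1, the octamer coactivator OBF-1, was at 117, 160 and 108 CPM in normoxia, 106, 95.5 and 80.7 at day 28, and 93.3, 81.7 and 51.2 at day 56. Both SuHx groups lay below normoxia (day 56 log2 -0.76, SE 0.25, edgeR adjusted p = 0.0829). Swap70, an actin-linked signalling protein of B cells, was at 140, 165 and 126 CPM in normoxia and 103, 95.3 and 76.8 at day 56 (-0.65, SE 0.22, edgeR adjusted p = 0.0878). Vpreb3, a surrogate light chain-like protein, was low in all groups: 2.42, 2.39 and 1.88 CPM in normoxia, 1.52, 0.711 and 0.800 at day 28, and 1.38, 1.30 and 0.5697 at day 56. Its edgeR values were -1.14 (SE 0.42, adjusted p = 0.128) and -1.05 (SE 0.42, adjusted p = 0.131), with both SuHx groups below normoxia.

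The lineage factors did not pass. Pax5, the B cell commitment factor, was at 26.1, 40.3 and 24.5 CPM in normoxia, 27.5, 20.7 and 14.5 at day 28, and 32.8, 29.5 and 19.3 at day 56. Ebf1, which acts with PAX5, was at 19.7, 20.0 and 12.8 CPM, then 30.3, 24.6 and 20.4, then 34.1, 29.0 and 14.0. Ebf1 was the only member whose day 28 libraries all lay above normoxia. Spib, an ETS factor, ran from 57.1 to 197 CPM and overlapped. Ralgps2, an exchange factor for Ral GTPases, was at 59.5, 54.6 and 48.8 CPM at day 28 and 43.1, 39.5 and 27.3 at day 56, without overlap (-0.57, SE 0.21, edgeR adjusted p = 0.192); 90.4% of its reads were uniquely mapped.

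Bach2, the factor that represses Prdm1 in B cells, was at 61.4, 31.5 and 24.7 CPM in normoxia, 59.6, 45.2 and 47.3 at day 28, and 68, 58.0 and 45.9 at day 56. Normoxia replicate 1 lay within the SuHx range. Without it, Bach2 was higher at day 28 (log2 0.87, SE 0.21; edgeR adjusted p = 0.0102) and day 56 (1.04, SE 0.21; adjusted p = 0.00464); with it, neither passed (0.433 and 0.259). Bach2 intron reads were 19.4, 16.3 and 14.1 CPM in normoxia, 56.9, 46.1 and 17.1 at day 28, and 36.6, 30.9 and 22.7 at day 56. The day 56 intron values lay above all normoxia values. Among the members this also held for Prdm1, Irf4, Xbp1 and Cd72. The exon estimate of Cd72 was below 0 (log2 -0.53). Cd79b went the other way, and the remaining members overlapped. The share of all genes with such intron values was not computed, so this is not read as a trait of the members. As for Prdm1, the part of the differing intron share of whole libraries was not tested.

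**Figure D4:**
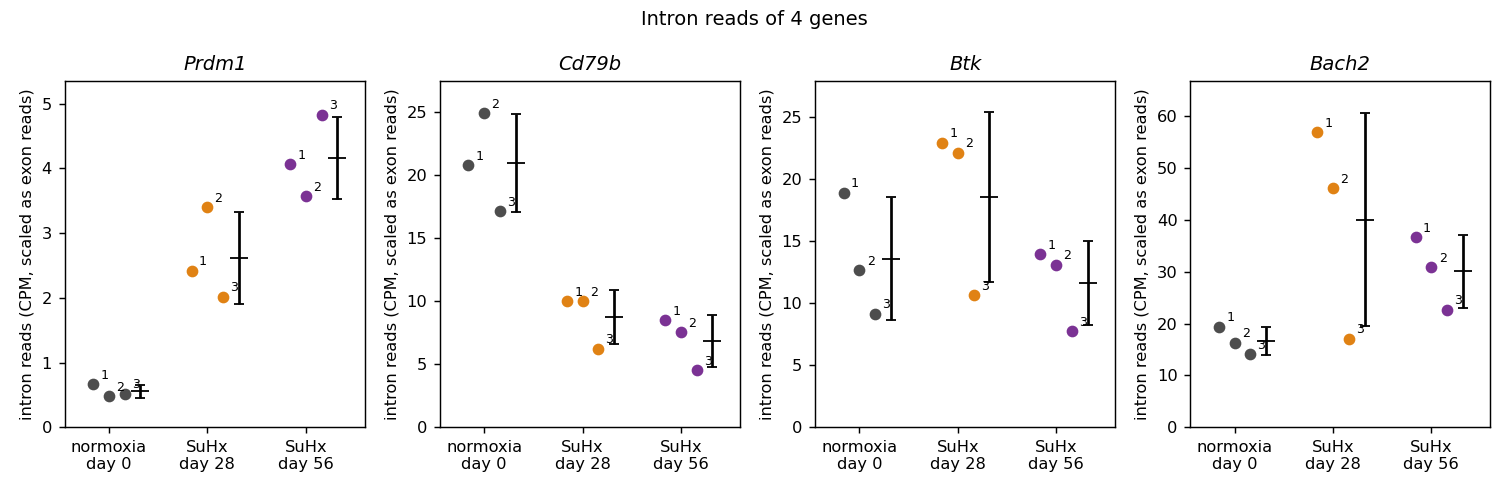
Intron reads (y axis, CPM scaled as the exon reads, from 0) of Prdm1, Cd79b, Btk and Bach2 in the 3 groups (x axis); points are libraries with their replicate number, bars the mean ± SD of 3 libraries. Prdm1 is separated between all 3 groups, Cd79b is lower in both SuHx groups than in normoxia, Btk overlaps, and Bach2 at day 56 (22.7 to 36.6) lies above normoxia (14.1 to 19.4).

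The intron reads of Cd79b were 20.8, 24.9 and 17.1 CPM in normoxia, 10, 10 and 6.24 at day 28, and 8.50, 7.56 and 4.52 at day 56. Both SuHx groups lay below normoxia, as in the exon reads. Btk introns gave 18.9, 12.7 and 9.15 CPM in normoxia, 22.9, 22.1 and 10.7 at day 28, and 14.0, 13.1 and 7.74 at day 56. The groups overlapped, unlike in its exon reads.

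In the plasma cell group, 1 of 5 members passed at day 56, Prdm1, upward (3.42% of all genes did). The other 4 did not pass. Mzb1, a chaperone of antibody assembly, was at 5.997, 27.9 and 25.1 CPM in normoxia, 9.23, 7.77 and 3.39 at day 28, and 8.47, 10.04 and 6.87 at day 56. Normoxia replicate 1 was below most SuHx libraries, and the other normoxia libraries were above all of them. The edgeR values were -1.53 (SE 0.53, adjusted p = 0.120) and -1.22 (SE 0.53, adjusted p = 0.154); without normoxia replicate 1 they were -1.93 (adjusted p = 0.00355) and -1.63 (adjusted p = 0.00715).

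Jchain, which joins IgM and IgA polymers, was at 23.1, 38.8 and 32.3 CPM in normoxia, 21.9, 18.6 and 12.9 at day 28, and 23.5, 32.2 and 17.9 at day 56. The day 28 libraries lay below normoxia (-0.82, SE 0.28, edgeR adjusted p = 0.119), and the day 56 libraries overlapped it. Without normoxia replicate 1 the day 28 value passed (-0.97, adjusted p = 0.0224). Xbp1 was at 15.9, 19.4 and 21.4 CPM in normoxia, 25.6, 44.4 and 19.8 at day 28, and 18.4, 26.9 and 23.1 at day 56 (day 28 log2 0.67, SE 0.29, edgeR adjusted p = 0.166). Irf4, which acts upstream of Prdm1, ran from 20.5 to 40.3 CPM, and its groups overlapped.

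Per kilobase of exon, the scale on which levels of different genes can be set side by side, Cd79b ranked first in normoxia at 396 ± 159 CPM per kb (SD, n = 3). Cd37 followed at 204 ± 45.9, Ms4a1 at 156 ± 78.4 and Fcmr at 112 ± 30.3; the mean ± SD ranges of neighbours in this order overlap. Prdm1 ranked 30, at 1.59 ± 0.42, below Ebf1 at 5.15 ± 1.201 and Irf4 at 5.28 ± 0.77, which overlap each other but not Prdm1. At day 56 Cd37 ranked first at 167 ± 2.79 and Cd79b second at 131 ± 24.7. Prdm1 ranked 27 at 7.83 ± 1.497, close to Ebf1 at 7.57 ± 3.08. The rise of Prdm1 thus left it among the lowest of the 30 genes.

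The replicates differed in a shared way across the genes. Replicate 3 was the lowest of its group for 27 of 30 members at day 28 and for 27 of 30 at day 56. The share of all genes lowest in replicate 3 was not computed. The sum of the T cell markers was instead highest in replicate 3 at day 28 (2004 CPM) and day 56 (2164 CPM), and lowest there in normoxia (1628 CPM). The summed CPM of the 30 members was 2862, 2626 and 1887 at day 28, 2475, 2483 and 1729 at day 56, and 2792, 3787 and 2804 in normoxia. In all 3 groups replicate 3 was also the library with the highest globin share (29.0% at day 28, 44.4% at day 56, 56.3% in normoxia) and the lowest intron share (14.2%, 11.9% and 5.37%); their part in this was not tested.

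Normoxia replicate 1 differed from the other normoxia libraries in a way that followed exon length. It was lower for 18 members, whose exons had a median summed length of 1661 bases, and higher for 12, with a median of 3767 bases. Mzb1 (log2 ratio -2.05), Ms4a1 (-1.48), Cd79b (-0.95) and Fcrla (-0.95) were furthest below, and Bach2 (1.11) and Cd22 (0.84) furthest above. Across the 30 genes, which share the libraries and are not independent, Spearman's rho of the ratio with exon length was 0.62, and over all 12447 genes it was 0.42. Without this library, 8 members passed at day 28 (2 higher, 6 lower), where 45.2% of all genes did, and 11 passed at day 56 (2 higher, 9 lower), where 43.0% of all genes did. Those shares are below the background of the same fit. The day 28 calls were Bach2 and Prdm1, upward, and Cd37, Cd79b, Fcrla, Jchain, Ms4a1 and Mzb1, downward. The added day 56 calls were Bach2, upward, and Cd37, Cr2, Fcrla, Ms4a1, Mzb1, Pou2af1 and Swap70, downward.

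**Figure D5:**
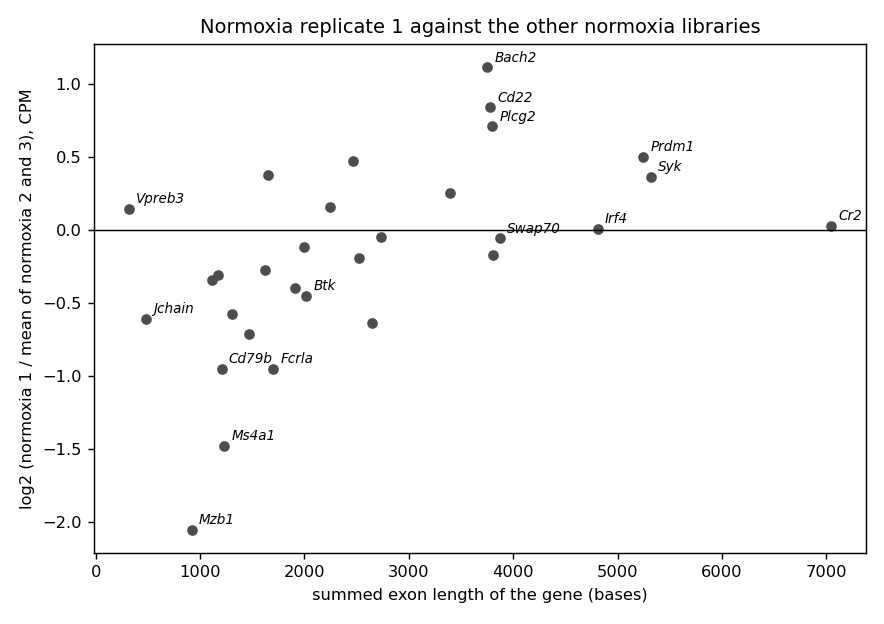
Log2 ratio of the CPM in normoxia replicate 1 to the mean of normoxia replicates 2 and 3 (y axis) against summed exon length in bases (x axis); each point is 1 of the 30 genes. Several genes of short summed exon length, such as Mzb1 (-2.05) and Ms4a1 (-1.48), lie below 0, but the short Vpreb3 (0.145) and Fcmr (0.378) do not. Several long ones, such as Bach2 (1.11), lie above 0.

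Further genes of the pathway were read from lists of non-members. Of 19 partners of receptor signalling, 0 passed in any comparison by edgeR, and 4 had an unadjusted p of at most 0.05 in each. Of all genes, 28.8% had one at day 28, 30.9% at day 56 and 18.5% between the days. DESeq2 called 3 partners at day 28, 2 at day 56 and 3 between the days. Its shares of all genes were 13.6%, 19.6% and 8.73%. Of 21 other B cell identity genes tested, 3 fell and 1 rose at day 56 by edgeR, where 3.70% of all genes fell and 3.42% rose. DESeq2 called 7 of the 21 (19.6% of all genes), and 8 had an unadjusted p of at most 0.05 (30.9% of all genes). In each of the other comparisons 0 passed by edgeR with 5 at an unadjusted p of at most 0.05, and DESeq2 called 4 at day 28 and 3 between the days. Tnfrsf13c, the BAFF receptor, was at 27.1, 30.8 and 23.4 CPM in normoxia, 16.7, 12.6 and 13.9 at day 28, and 8.24, 9.83 and 5.83 at day 56. The 3 groups did not overlap, and the day 56 value was -1.77 (SE 0.23, edgeR adjusted p = 0.00601; at most 0.0318 over 20 alternatives). Tnfrsf13b, the receptor TACI, fell by 1.16 on the log2 scale (SE 0.27, edgeR adjusted p = 0.0361), and the costimulator Cd86 by 1.47 (SE 0.27, adjusted p = 0.0198). Tnfrsf13b passed in 11 of 20 alternatives and Cd86 in 14; both were lost without any 1 of the day 56 libraries or without normoxia replicate 2 or 3 (adjusted p up to 0.142 and 0.0971), Cd86 with the intron share as a covariate (0.0913), and Tnfrsf13b also without day 28 replicate 1 (0.0514) or 2 (0.0546), in a fit of the 2 groups (0.0539) and with exon plus intron reads (0.0702). The riser was Gpr183, an oxysterol receptor that guides B cells, at 1.00 (SE 0.23, adjusted p = 0.0355). Only 5.63% of its reads were uniquely mapped, and on those reads alone the value was 0.19 (adjusted p = 0.738), so it is uncertain; it passed in 9 of 20 alternatives.

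Of 25 secretory genes of plasma cells, 12 had estimates above 0 at day 56 and 13 below. Sdc1 (0.588 to 3.40 CPM) and Tnfrsf17 (0.352 to 2.855 CPM) were low in all libraries. They did not rise over normoxia at day 56 (log2 -0.40 and -0.80). Tnfrsf17 was lowest at day 28, below both other groups without overlap. Its edgeR values there did not pass (-2.49 from normoxia, adjusted p = 0.0638, and 1.69 from day 28 to day 56, adjusted p = 0.127). Of the 25 genes, 6 lay above normoxia in all day 56 libraries (15.6% of all genes) and 3 below (14.9%). By edgeR 1 gene rose at day 56, where 3.42% of all genes did. This was Herpud1, a component of the degradation machinery of the endoplasmic reticulum, whose cells of origin were not tested. It was at 44.2, 39.5 and 37.5 CPM in normoxia, 90.4, 57.8 and 65.0 at day 28, and 217, 170 and 217 at day 56. The groups did not overlap (day 56 log2 2.32, SE 0.21, edgeR adjusted p = 0.00109; 1.501 over day 28, adjusted p = 0.0285). The rise over normoxia passed in all 20 alternatives; the difference from day 28 was lost with the globin share as a covariate (0.203), without day 28 replicate 2 (0.0876) and without day 56 replicate 1 (0.0845), 2 (0.0918) or 3 (0.122). The other 24 did not pass in any comparison by edgeR. DESeq2 called 6 of the 25 at day 56 (19.6% of all genes). An unadjusted p of at most 0.05 at day 56 was found for 11 of the 25 (30.9% of all genes), 6 higher and 5 lower. At day 28 those counts were 8 by DESeq2 (13.6% of all genes) and 12 at an unadjusted p of at most 0.05 (28.8% of all genes). Of 5 precursor genes, 0 passed by edgeR or DESeq2, with 1 at an unadjusted p of at most 0.05 at day 56 and 0 in the other comparisons. Their summed level was 1.92 to 18.3 CPM in normoxia, 11.0 to 13.4 at day 28 and 2.95 to 8.74 at day 56.

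Immunoglobulin was readable from few lines. Of 6 symbols starting with Igh, Igk or Igl, 3 were heavy chain lines. Ighm, the IgM heavy chain, was at 1509, 2894 and 1931 CPM in normoxia, 2009, 1495 and 986 at day 28, and 1650, 1584 and 1082 at day 56. The groups overlapped (day 56 log2 -0.55, SE 0.35, edgeR adjusted p = 0.3004). Igh-6 ran from 2.11 to 64.3 CPM with overlap, and Ighg1 had 0 reads in all 9 libraries.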

How the data were processed

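RNA sequencing libraries of rat PBMC were compared in 3 groups of 3. The authors deposited 1 table of exon reads as raw counts per gene; per the file headers it also gives uniquely mapped exon reads, exon plus intron reads and exon length. In replicate 1 of each group the deposited uniquely mapped reads are formally estimated counts because of fractions on broken lines; 8 broken lines were left out and no rounding was needed. The submitters' processing notes name the build rn6 and the tool FastQC; for the aligner, no name was found in the labels. Another 90 columns of per-sample values stayed out of use.

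Counts were tested with edgeR 4.0.16 in R 4.3.3 (robust glmQLFit and glmQLFTest, TMM factors, filterByExpr, 1 mean per group over all 9 libraries), with Benjamini-Hochberg adjustment over 12447 genes at 0.05. DESeq2 1.42.0 was an alternative. The fit was tested on simulated data with 200 changed genes. CPM use TMM-scaled totals, and 3 reads correspond to 0.0762 to 0.195 CPM; counting error only is covered. Every pair of libraries of the same group differed by more than sampling noise. SE were derived from the F statistic. Intron reads are exon plus intron reads minus exon reads. All members were named whatever their result. Of the 4 lists of B cell and plasma cell non-members the called genes were named, at most 5 per list and comparison. Cd28, Cd8a, Trat1, Gzmb, Lyz2, Sdc1 and Tnfrsf17 were named outside this rule after their values were seen. Coordinates are 1-based. The members and lists were chosen with earlier results of these data known.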

Additional observations from a re-analysis of the deposited data

Results flagged for a closer look

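Prdm1 was flagged because its difference from normoxia differed between the 2 SuHx times by a test of that difference: day 56 exceeded day 28 by 1.67 on the log2 scale (SE 0.27, edgeR adjusted p = 0.0330; 2.81e-06 to 0.361 over 20 alternatives), with 3 of 3 day 56 libraries above all day 28 libraries.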

How the results depend on the processing

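Alternatives were 20 per comparison. At day 28 the number of members called was 0 with edgeR and moved to 2 with DESeq2; leaving out 1 library gave 0 to 8. At day 56 it was 3 and moved to 5 with exon plus intron reads, 1 with the intron share as a covariate and 7 with DESeq2 (23.3% of members, where DESeq2 called 19.6% of all genes); leaving out 1 library gave 1 to 11. Between the days it was 1 and moved to 0 with the globin share as a covariate and 2 with DESeq2; leaving out 1 library gave 0 to 2. Upper-quartile or RLE factors, no filter, uniquely mapped reads and leaving out globin genes gave the same counts. The labels do not say what the replicate numbers mark. Correlations of same-numbered deviations were -0.15 to 0.17, which with 3 libraries per group cannot settle whether libraries are paired. With a replicate block the counts were 0, 4 and 1. Of 1800 member values under alternatives, 83 changed sign, and 0 of these passed the threshold in either fit. The number of members below day 28 at day 56 was 16 and became 6 with the globin share as a covariate. The 3 libraries per group and the spread within normoxia limit these comparisons.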
